A study of Homo sapiens with 8 samples.

Results

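The 9 genes described here encode the core of HLA class I antigen presentation. They are the classical heavy chains HLA-B and HLA-C, the non-classical heavy chains HLA-E and HLA-F, the light chain B2M, the peptide transporter subunits TAP1 and TAP2, the loading chaperone tapasin (TAPBP) and the transactivator NLRC5. They were chosen by gene symbol and not by a rule on their values, although earlier results of these data were known. Each matched 1 entry among the 27475 human entries of the expression table. All 9 were above 0 TPM in each of the 8 libraries, so no member was lost to the filter on low values. On GRCh38.p14 (RefSeq), 7 of them lie in the major histocompatibility complex of chromosome 6, with HLA-F at chr6:29723434-29738532, HLA-E at chr6:30489509-30494194, HLA-C at chr6:31268749-31272092, HLA-B at chr6:31353875-31357179, TAP2 at chr6:32821831-32838739, TAP1 at chr6:32845209-32853704 and TAPBP at chr6:33299694-33314078. B2M is at chr15:44711517-44718145 and NLRC5 at chr16:56989557-57083520. Levels are in TPM, a measure corrected for gene length in which each library adds up to one fixed total.

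The lines UM-UC-3 and RT112 are established lines from human bladder cancers, and RNA-seq was performed on both. Cells of each line were transfected with 3 pooled siRNAs that target PAI-1 (siPAI-1) or with 3 pooled scrambled siRNAs (Scr), 100 pmol in either case, and harvested after 72 h. There were 4 groups with 2 libraries each, UM-UC-3 Scr, UM-UC-3 siPAI-1, RT112 Scr and RT112 siPAI-1, and all 8 libraries went through the same transfection procedure. Each line stands for 1 cell line only, the labels name more than one growth medium without saying which line had which, and medium and cell line cannot be told apart here. The knock-down is described as 3 separate experiments, and 2 libraries per group were analysed here. Neither the methods nor the labels tie each library to one of these experiments, so the p-values measure only the spread between these libraries, which may be technical.

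HLA class I molecules display fragments of the cell's own proteins at the cell surface, where CD8+ T cells read them. The proteasome cuts proteins into peptides, TAP1 and TAP2 carry the peptides into the endoplasmic reticulum, and tapasin holds an empty complex of heavy chain and B2M next to TAP until a peptide fits. HLA-E displays mostly leader peptides of other class I molecules and is read by NK cells, whereas HLA-F is the least well understood of the expressed heavy chains. The genes are switched on together by interferon gamma through IRF1, by NF-kB, and by NLRC5, which has no DNA-binding domain of its own and acts through the RFX and NF-Y proteins at a conserved promoter module. Loss of class I expression is a known route by which bladder and other tumours escape T cells.

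The promoter elements that these regulators recognise are shown first, since the genes are known as a co-regulated set. RefSeq promoter sequences on GRCh38.p14 were held for 7 of the 9 genes, all but HLA-E and NLRC5, and 250 bases upstream of the annotated start were searched on both strands. Capitals mark every match to the NF-kB consensus, the core of the interferon-stimulated response element or ISRE (GAAA, any 2 bases, GAAA), the CRE core contained in the X2 box (TGACG) and the CCAAT box bound by NF-Y (CCAAT). A match on the other strand appears as its reverse complement. For each gene, the stretch that spans its matches is printed 5′ to 3′ on the strand of the gene, and for TAP1, with 2 starts listed, the start furthest upstream was used. The windows are HLA-B (chr6:31357226-31357361, minus strand), HLA-C (chr6:31272139-31272289, minus strand), HLA-F (chr6:29723273-29723386, plus strand), B2M (chr15:44711368-44711477, plus strand), TAP1 (chr6:32853762-32853954, minus strand), TAP2 (chr6:32838765-32838802, minus strand) and TAPBP (chr6:33314079-33314139, minus strand).
HLA-B: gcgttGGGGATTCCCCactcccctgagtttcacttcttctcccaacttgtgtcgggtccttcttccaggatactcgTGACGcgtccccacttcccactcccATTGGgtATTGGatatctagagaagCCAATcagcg
HLA-C: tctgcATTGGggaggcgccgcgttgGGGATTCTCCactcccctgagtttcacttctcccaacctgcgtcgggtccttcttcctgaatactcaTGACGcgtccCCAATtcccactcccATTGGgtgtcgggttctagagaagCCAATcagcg
HLA-F: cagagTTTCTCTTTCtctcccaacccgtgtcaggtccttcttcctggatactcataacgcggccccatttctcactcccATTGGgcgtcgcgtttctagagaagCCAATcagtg
B2M: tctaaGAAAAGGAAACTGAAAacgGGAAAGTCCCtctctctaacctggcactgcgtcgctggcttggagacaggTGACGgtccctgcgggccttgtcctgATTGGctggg
TAP1: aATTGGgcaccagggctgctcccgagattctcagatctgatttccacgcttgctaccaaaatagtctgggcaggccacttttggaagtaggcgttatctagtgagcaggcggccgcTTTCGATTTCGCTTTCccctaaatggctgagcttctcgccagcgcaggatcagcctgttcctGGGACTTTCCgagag
TAP2: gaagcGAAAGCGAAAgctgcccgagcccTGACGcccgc
TAPBP: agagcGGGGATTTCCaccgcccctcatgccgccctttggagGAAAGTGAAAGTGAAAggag

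Both classical heavy chain promoters carry a CRE core at nearly the same place, 106 bases upstream of the start in HLA-B and 105 bases in HLA-C, and a CCAAT box 56 bases upstream. In HLA-F the module has a CCAAT box 57 bases upstream but no TGACG match. The NF-kB consensus was present in 5 of the 7, HLA-B, HLA-C, B2M, TAP1 and TAPBP, against 3.67% of 35116 RefSeq promoters. Its letters were settled after the promoters had been seen. The share in all promoters therefore cannot test whether the members carry it more often. In HLA-B the NF-kB consensus is a pair of overlapping matches, 177 and 176 bases upstream, and in HLA-C a single match 172 bases upstream. The ISRE core was present in 5 of the 7, HLA-F, B2M, TAP1, TAP2 and TAPBP, against 3.02% of all promoters. In B2M, TAP1 and TAPBP it occurs as a pair of matches that overlap by sharing one GAAA. The CRE core was in 4 of the 7 and in 21.2% of all promoters, and the CCAAT box was in 5 of the 7 and in 32.0% of all promoters. A match is a description of letters and was not measured as a binding site in these data. Only exact letters were counted, so a promoter without a match can still hold a variant of the element.

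**Figure D1:**
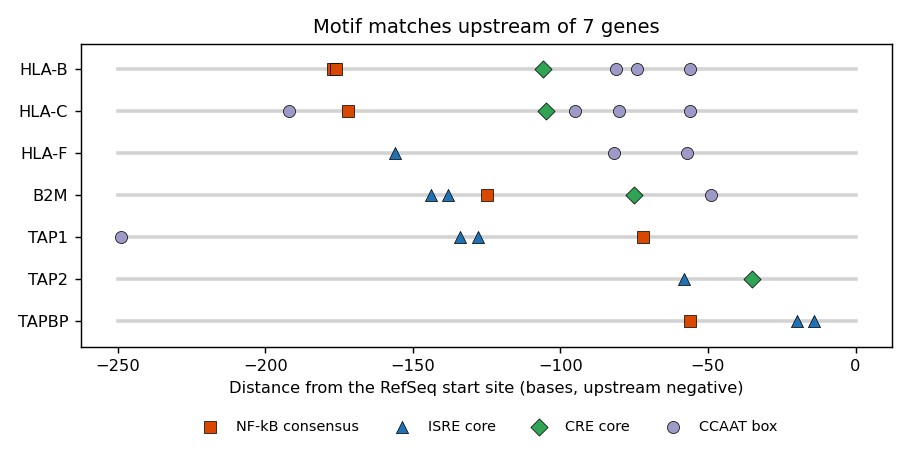
Positions of the 4 motifs in the 250 bases upstream of the annotated start of 7 members, with the distance from the start in bases on the horizontal axis and 1 line per gene. The CRE cores of HLA-B and HLA-C lie at 106 and 105 bases, and the ISRE matches of TAPBP at 20 and 14 bases are the closest to a start.

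Library depth was estimated from the FPKM steps of short genes at 29.3 to 34.2 M reads (M for mega). The lines differed in epithelial identity. Of 14 tested epithelial bladder markers, 14 were higher in RT112, with a summed level of 229 to 246 TPM in UM-UC-3 Scr and 13570 to 13930 TPM in RT112 Scr. Of 7 mesenchymal markers, 5 were lower and 2 higher in RT112 (CDH2 and FN1, named after their values were seen), with a summed level of 3264 to 3547 TPM in UM-UC-3 Scr against 139 to 148 TPM in RT112 Scr. The part of this difference between the lines in the values of the 9 genes was not tested. Markers of white blood cells, which carry high levels of class I genes, were near 0, with 5 of 15 at 0 in all libraries and a summed level of 1.10 to 2.82 TPM.

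The levels of the 9 members spanned a wide range. B2M was the highest in all 4 groups, with a mean of 726 ± 43.3 TPM in UM-UC-3 Scr and 1142 ± 2.15 TPM in RT112 Scr (SD, n = 2), and HLA-C was second, with 260 ± 14.1 and 399 ± 2.79 TPM. TAP2, HLA-B, HLA-E and TAPBP formed a middle tier between 54.3 and 129 TPM over all libraries. TAP1 came next with 10.4 to 29.2 TPM, followed by NLRC5 and HLA-F, which were at or below 6.07 TPM in all libraries. In UM-UC-3 Scr the libraries of HLA-E overlapped with those of TAPBP and of HLA-B, so its place between them is not settled, whereas TAPBP lay above HLA-B. The order was also not settled for HLA-F and NLRC5 in RT112 Scr and for HLA-B and TAP2 in RT112 siPAI-1. TPM is scaled by length and allows such comparisons between genes, although reads of the near-identical HLA heavy chains can be split between them by the counting program. In bulk RNA, fewer cells with a gene on and less RNA of it per cell cannot be told apart.

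**Figure D2:**
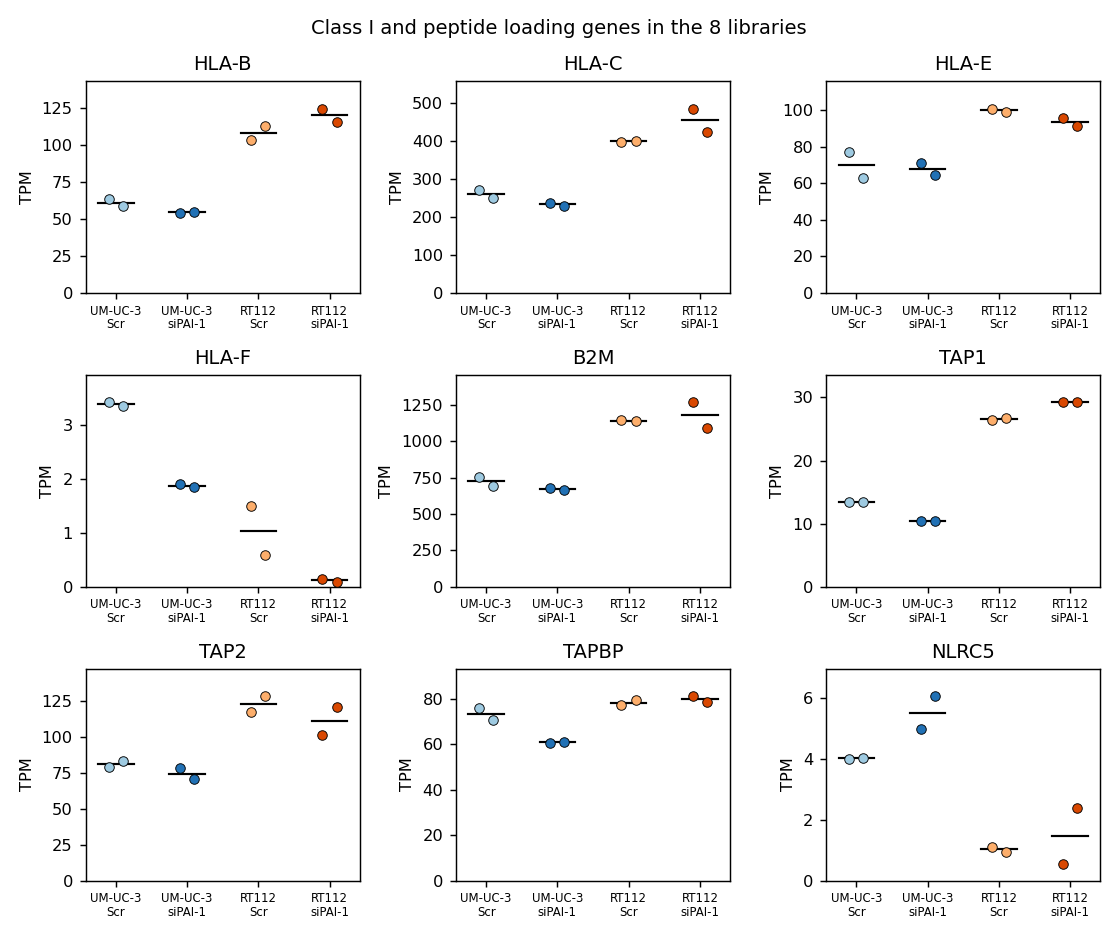
TPM of each of the 9 members in the 8 libraries, with 1 panel per gene on its own linear axis from 0, 1 point per library and a line at the mean of each group. RT112 points lie above UM-UC-3 points for 7 members and below them for HLA-F and NLRC5.

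The first comparison set RT112 against UM-UC-3 in the Scr libraries, that is, without knock-down. Of the 9 members, 6 were higher in RT112 (HLA-B, HLA-C, HLA-E, B2M, TAP1 and TAP2), 2 were lower (HLA-F and NLRC5) and TAPBP did not pass the test. The called members were between 1.43 and 1.98 times as high in RT112 for the 6, whereas HLA-F and NLRC5 were 3.26 and 3.91 times as high in UM-UC-3. Over all 19201 genes tested, 25.3% were called higher and 26.3% lower at an adjusted p under 0.05, which is 51.6% in either direction. The median log2 difference was 0.60 over the 9 members and -0.06 over all genes. The 2 lines did not overlap for any of the 9 members, 7 of which were higher in RT112 and 2 lower, against 34.6% and 37.7% of all genes.

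Among the classical heavy chains, HLA-B was at 63.3 and 58.4 TPM in UM-UC-3 Scr and at 103 and 113 TPM in RT112 Scr. This is a log2 difference of 0.83 (SE 0.079, adjusted p = 0.00244, limma). HLA-C, the most abundant heavy chain among the members, was at 270 and 250 TPM in UM-UC-3 Scr and at 397 and 401 TPM in RT112 Scr, a log2 difference of 0.62 (adjusted p = 0.00204, limma). For both genes the lower RT112 library lay well above the higher UM-UC-3 library. HLA-E was at 76.9 and 62.9 TPM in UM-UC-3 Scr and at 101 and 99.1 TPM in RT112 Scr (log2 difference 0.52, SE 0.11, adjusted p = 0.0232, limma). Its UM-UC-3 libraries were the most spread among the well expressed members, the higher being 1.22 times the lower, and its call was lost with eBayes untrended. The heavy chains are the most polymorphic human genes, and alleles of each line that differ from the reference can change how many reads are assigned. This was not tested.

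HLA-F went the other way. It was at 3.42 and 3.35 TPM in UM-UC-3 Scr and at 1.49 and 0.59 TPM in RT112 Scr, with a log2 difference of -1.73 (SE 0.48, adjusted p = 0.0438, limma). The RT112 Scr libraries differed 2.53-fold from each other. In reads, an upper estimate from the longest annotated transcript gave 105 and 111 for UM-UC-3 Scr but 45.2 and 17.6 for RT112 Scr. Without RT112 Scr replicate 2 the log2 difference was -1.13 and the call was lost, as it was without either UM-UC-3 Scr library, with a pseudocount of 0.01 TPM or with eBayes untrended.

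B2M, the light chain shared by all class I molecules, was at 756 and 695 TPM in UM-UC-3 Scr and at 1144 and 1141 TPM in RT112 Scr (log2 difference 0.66, SE 0.055, adjusted p = 0.00181, limma). The ratio of B2M to the summed TPM of HLA-B, HLA-C, HLA-E and HLA-F was 1.84 ± 0.019 in UM-UC-3 Scr and 1.88 ± 0.028 in RT112 Scr (SD, n = 2). The gap between these ratios is about as small as their spread, so light chain and heavy chains stood in nearly the same proportion in both lines. Within the summed heavy chains, HLA-C made up 66.0 ± 1.03% in UM-UC-3 Scr and 65.6 ± 0.382% in RT112 Scr. HLA-B made up 15.5 ± 0.207% and 17.8 ± 0.913%, HLA-E 17.7 ± 1.29% and 16.4 ± 0.424%, and HLA-F 0.861% and 0.172%. The shares of HLA-C overlapped between the lines, those of HLA-E were apart by a narrow margin, and those of HLA-B and HLA-F were clearly apart. No test was run on these shares, for which 2 libraries against 2 cannot reach a p under 0.05 by permutation.

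TAP1 had the largest difference of the members that were higher in RT112. It was at 13.4 TPM in each UM-UC-3 Scr library and at 26.4 and 26.7 TPM in RT112 Scr, a log2 difference of 0.98 (SE 0.080, adjusted p = 0.00168, limma). TAP2, its partner in the transporter, was at 79.3 and 83.5 TPM in UM-UC-3 Scr and at 118 and 129 TPM in RT112 Scr (log2 difference 0.60, adjusted p = 0.00413, limma). Although both proteins are needed in the same complex, the TPM of TAP1 was 0.165 ± 0.0065 of that of TAP2 in UM-UC-3 Scr and 0.215 ± 0.011 in RT112 Scr (SD, n = 2). The TAP1 gene lies next to PSMB9, with 487 bases between the RefSeq genes on GRCh38.p14, and PSMB9 was lower in RT112, as given with the immunoproteasome.

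TAPBP, the tapasin gene, was the member most alike in the 2 lines. It was at 75.9 and 70.7 TPM in UM-UC-3 Scr and at 77.3 and 79.2 TPM in RT112 Scr, and its log2 difference of 0.09 (SE 0.064, adjusted p = 0.299, limma) did not pass the test. NLRC5, the transactivator of class I genes, was at 4.02 and 4.03 TPM in UM-UC-3 Scr and at 1.11 and 0.95 TPM in RT112 Scr. Its log2 difference of -1.87 (SE 0.22, adjusted p = 0.00436, limma) had the opposite sign to that of 7 of the other 8 members. In estimated reads this was 563 and 610 in UM-UC-3 Scr and 154 and 128 in RT112 Scr.

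**Figure D3:**
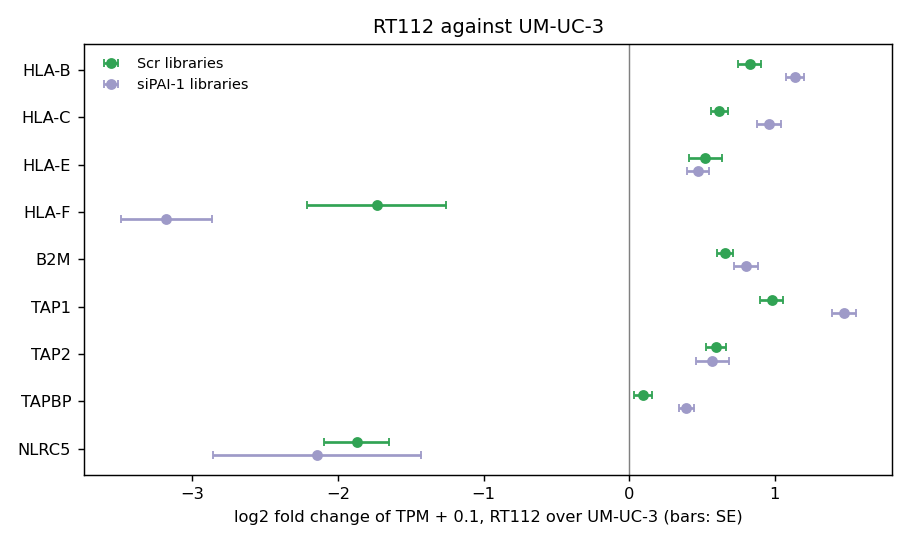
Log2 difference between RT112 and UM-UC-3 of each member, with Scr and with siPAI-1 as separate points and bars for the standard error of the limma fit. In both, HLA-F and NLRC5 lie below 0, the other 7 lie above 0, and TAP1 is the highest with 0.98 and 1.48.

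The same comparison in the 4 siPAI-1 libraries, which share no library with the Scr comparison, called 7 members higher in RT112 and 1 lower, against 26.2% and 26.1% of 19359 genes (52.2% in either direction). Again none of the 9 overlapped between the lines (36.6% of all genes were higher and 37.1% lower without overlap). The log2 difference was 1.14 for HLA-B (adjusted p = 0.000757, limma), 0.96 for HLA-C (adjusted p = 0.00182), 0.47 for HLA-E (adjusted p = 0.00882) and 0.80 for B2M (adjusted p = 0.00309). Among the loading genes it was 1.48 for TAP1 (adjusted p = 0.000781, limma), 0.57 for TAP2 (adjusted p = 0.0176) and 0.39 for TAPBP (adjusted p = 0.00592). TAPBP was thus the member called here but not with Scr, at 60.7 and 61.0 TPM in UM-UC-3 siPAI-1 and 81.1 and 78.7 TPM in RT112 siPAI-1. HLA-F had a log2 difference of -3.18 (adjusted p = 0.00271, limma), with 1.90 and 1.85 TPM in UM-UC-3 siPAI-1 and 0.15 and 0.09 TPM in RT112 siPAI-1.

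NLRC5 did not pass the test in the siPAI-1 libraries, with a log2 difference of -2.14 (SE 0.72, adjusted p = 0.0716, limma). It was at 4.99 and 6.07 TPM in UM-UC-3 siPAI-1, while the 2 RT112 siPAI-1 libraries, at 0.55 and 2.38 TPM, differed 4.33-fold. Both were still below both UM-UC-3 libraries. Without RT112 siPAI-1 replicate 2 the log2 difference was -3.11 and NLRC5 was called, and without replicate 1 it was -1.18 and not called.

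The number of members called depended on having both libraries of each group. When 1 library is left out, its group is a single library that is assumed to vary like the other group. With Scr, the members called higher then numbered 3 without RT112 Scr replicate 1, 1 without RT112 Scr replicate 2 and 4 without either UM-UC-3 Scr library, while the members called lower numbered 2, 1, 0 and 0 in the same order. With siPAI-1, they numbered 5 and 5 without either RT112 library and 2 and 2 without either UM-UC-3 library for those higher, and 1, 2, 0 and 1 for those lower. No member changed its direction between the lines in any of these fits.

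Other genes of the pathway were taken from lists named for their role, also with earlier results of these data known. Of 17 further genes of class I loading and peptide supply, 10 were higher in RT112 Scr than in UM-UC-3 Scr and 3 were lower. The other 4 did not pass the test, and the median log2 difference was 0.45. Over all genes, 25.3% were called higher and 26.3% lower in this comparison. The inducible immunoproteasome subunits, which replace the catalytic subunits of the standard proteasome and favour peptides that bind class I, did not all go one way. PSMB8 was at 22.1 and 26.2 TPM in UM-UC-3 Scr and at 77.6 and 71.6 TPM in RT112 Scr (log2 difference 1.63, adjusted p = 0.00115, limma), and PSMB10 was at 14.69 and 16.04 TPM against 30.8 and 32.0 TPM (log2 difference 1.03, adjusted p = 0.00195, limma). PSMB9 was the reverse, at 19.05 and 21.02 TPM in UM-UC-3 Scr and 11.1 and 14.1 TPM in RT112 Scr (log2 difference -0.67, adjusted p = 0.0277, limma). In the siPAI-1 libraries its log2 difference was -0.32 (adjusted p = 0.0608, limma) and it did not pass the test.

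PSME1, a subunit of the PA28 proteasome activator, was 2.74 times as high in RT112 Scr (log2 difference 1.46, adjusted p = 0.000803, limma). ERAP2, an aminopeptidase that trims peptides in the endoplasmic reticulum, was 3.79 times as high (log2 difference 1.91, adjusted p = 0.000558, limma). PDIA3, the disulfide isomerase bound to tapasin in the loading complex, was 1.75 times as high (log2 difference 0.81, adjusted p = 0.000774, limma). The lectin chaperones of the loading complex, named after their values were seen, were split, with CANX at a log2 difference of 0.41 (adjusted p = 0.00618, limma) and CALR at -0.55 (adjusted p = 0.00112, limma). Of 16 entries for 14 genes of the constitutive proteasome, 7 were higher in RT112 and 4 lower, against 25.3% and 26.3% of all genes. Examples are PSMA4 with a log2 difference of 1.01 and PSMB6 with -0.92.

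HLA-G, a further non-classical heavy chain, named after its values were seen, was at 2.08 and 1.88 TPM in UM-UC-3 Scr and at 7.51 and 7.06 TPM in RT112 Scr (log2 difference 1.83, adjusted p = 0.00243, limma). The limit on reads split between HLA genes and on alleles unlike the reference holds for this gene as well. Of 12 tested class I-like genes and ligands of NK receptors, 4 were higher in RT112 and 5 lower, against 25.3% and 26.3% of all genes. All 4 genes named from this list passed the test. Among them MR1, which presents vitamin B metabolites to T cells, was 8.94 times as high in RT112 Scr, and MICB, a stress ligand of the receptor NKG2D, was 1.98 times as high. Its close relative MICA was 3.21 times as high in UM-UC-3 Scr, as was PROCR, the CD1-like receptor of protein C, at 3.29 times.

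Of 13 transcription factors of the class I promoters, 1 was higher in RT112, 5 were lower and 7 did not pass the test. Over all genes, 25.3% were called higher and 26.3% lower. The median log2 difference was -0.29 over the 13 factors. The 3 subunits of the RFX complex, through which NLRC5 reaches the promoters, were all lower. RFX5 was at 39.50 and 37.97 TPM in UM-UC-3 Scr and at 5.77 and 5.93 TPM in RT112 Scr (log2 difference -2.71, adjusted p = 0.000362, limma). RFXANK was at 80.4 and 78.2 TPM against 28.7 and 21.2 TPM (log2 difference -1.68, adjusted p = 0.00261, limma), and RFXAP at 5.13 and 4.68 TPM against 2.74 and 2.27 TPM (log2 difference -0.95, adjusted p = 0.0210, limma). NFYC, a subunit of the CCAAT-binding factor NF-Y, had a log2 difference of -0.64 (adjusted p = 0.00451, limma). IRF1, which binds the ISRE, was the factor that was higher, at 24.4 and 31.2 TPM in UM-UC-3 Scr and 62.7 and 66.7 TPM in RT112 Scr (log2 difference 1.23, adjusted p = 0.00394, limma). In RT112, 6 class I members thus stood higher beside lower levels of NLRC5 and all 3 RFX subunits, and whether these levels are connected was not tested.

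Of 20 genes of the wider interferon response, 11 were higher in RT112 Scr and 6 lower, against 25.3% and 26.3% of all genes. Their median log2 difference was 0.69. BST2 (tetherin), a surface protein that retains budding viruses, had a log2 difference of 7.23, and the guanylate-binding protein genes GBP2 and GBP1 had 5.58 and 3.66. OAS1, a sensor enzyme for double-stranded RNA, had 2.51, and all of these passed the test. In the receptor and signalling part of the pathway 6 of 14 genes were higher and 4 lower, against the same shares of all genes. SOCS1 and SOCS3, inhibitors of JAK kinases, had log2 differences of -3.24 and -1.63 in RT112, and IRF9 had -2.01, while the receptor subunit gene IFNGR2 had 0.84. Genes of the class II pathway, which NLRC5's relative CIITA controls through the same RFX factors, were scarce in both lines, with a summed level of 0.72 to 5.21 TPM over 10 genes and none with a mean of 1 TPM over all 8 libraries.

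**Figure D4:**
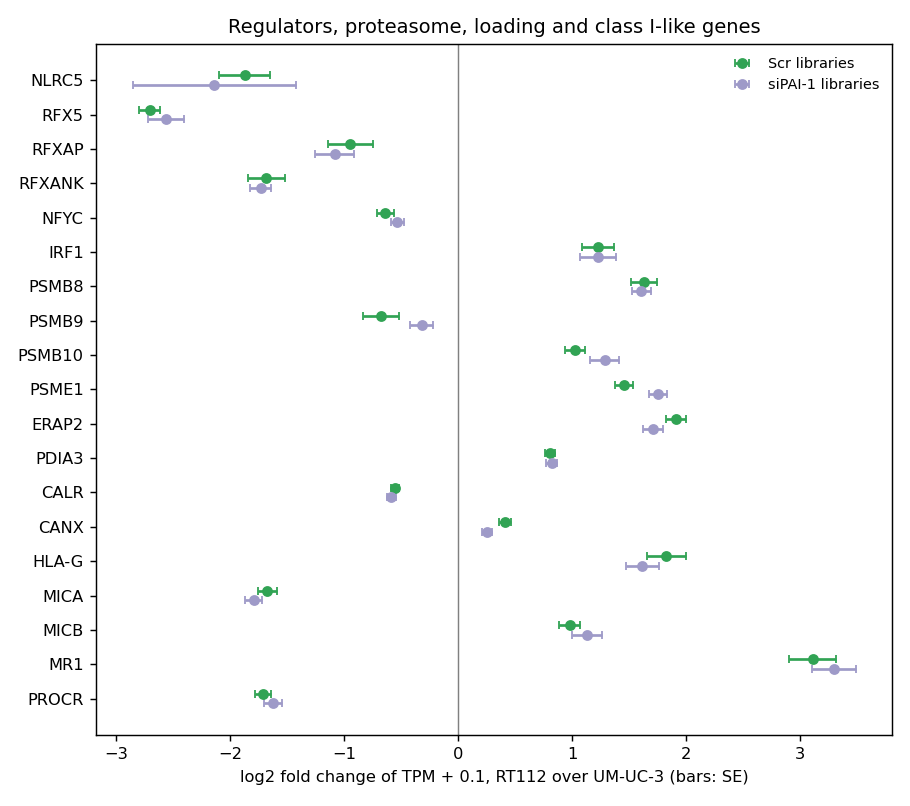
Log2 difference between RT112 and UM-UC-3, in the Scr and in the siPAI-1 libraries, of NLRC5 and further genes of class I regulation, peptide supply, loading and the class I-like family, with bars for the standard error. The RFX subunits and NLRC5 lie below 0, IRF1, PSMB8 and PSMB10 above 0, and MR1 is the highest, at 3.11 with Scr.

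The second question was whether the 9 genes respond to siPAI-1 within a line. In UM-UC-3, 0 of 9 members passed at an adjusted p under 0.05 (limma), and 0 of all 18528 genes did. At an unadjusted p under 0.05, 4 members were lower with siPAI-1 (HLA-C, HLA-F, TAP1 and TAPBP) and 0 were higher, against 3.41% and 2.60% of all genes. The median log2 change was -0.16 over the members and -0.01 over all genes. The siPAI-1 libraries lay below both Scr libraries for 7 members and above them for NLRC5, against 17.1% and 15.1% of all genes, and HLA-E overlapped.

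TAPBP had the smallest p of the members in UM-UC-3. It was at 75.9 and 70.7 TPM with Scr and at 60.7 and 61.0 TPM with siPAI-1, a difference of -17.01% between group means and a log2 change of -0.27 (SE 0.065, unadjusted p = 0.00889, adjusted p = 0.791, limma). TAP1 was at 13.4 TPM in each Scr library and at 10.5 and 10.4 TPM with siPAI-1, a log2 change of -0.36 (SE 0.11, unadjusted p = 0.0231, adjusted p = 0.791, limma). For both loading genes the siPAI-1 libraries were close to each other and clear of the Scr libraries. HLA-F was at 3.42 and 3.35 TPM with Scr and at 1.90 and 1.85 TPM with siPAI-1, a log2 change of -0.82 (SE 0.26, unadjusted p = 0.0238, adjusted p = 0.791, limma), and its estimated reads went from 105 and 111 to 65.6 and 56.2. HLA-C was at 270 and 250 TPM with Scr and at 237 and 229 TPM with siPAI-1, a log2 change of -0.16 (unadjusted p = 0.0477, adjusted p = 0.823, limma).

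The other 5 members had larger p-values in UM-UC-3. The group means of siPAI-1 and Scr differed by -10.5% for HLA-B (adjusted p = 0.851, limma) and by -7.17% for B2M (adjusted p = 0.858, limma). The difference was -8.30% for TAP2, at 78.3 and 71.0 TPM with siPAI-1, and -3.16% for HLA-E, whose libraries overlapped. NLRC5 was the single member with a higher mean, at 4.02 and 4.03 TPM with Scr and at 4.99 and 6.07 TPM with siPAI-1 (log2 change 0.44, SE 0.20, adjusted p = 0.858, limma). None of these passed the test. Without UM-UC-3 Scr replicate 1 the log2 change was -0.10 for HLA-B, -0.10 for HLA-C and -0.05 for B2M. With all libraries it was -0.16, -0.16 and -0.11, so each was smaller without that library but kept its direction. The log2 change of HLA-E was 0.11 without it and -0.04 with all libraries.

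In RT112, 0 of 9 members passed at an adjusted p under 0.05 (limma), and 0 of all 18437 genes did. At an unadjusted p under 0.05 there was 1 member lower, HLA-F, and 0 higher, against 2.42% and 3.35% of all genes. The median log2 change was 0.04 over the members and 0.01 over all genes. The siPAI-1 libraries of HLA-B, HLA-C and TAP1 were above and those of HLA-E and HLA-F below both Scr libraries, that is, 5 of 9 members without overlap against 32.7% of all genes.

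HLA-F was at 1.49 and 0.59 TPM in RT112 Scr and at 0.15 and 0.09 TPM in RT112 siPAI-1, a log2 change of -2.26 (SE 0.57, unadjusted p = 0.0123, adjusted p = 0.838, limma). At the estimated depth, the reads were at most 45.2 and 17.6 with Scr and at most 5.0 and 2.8 with siPAI-1. The RT112 siPAI-1 level thus sits at the edge of what this depth can measure, and the size of the change is uncertain. TAP1 was at 26.4 and 26.7 TPM with Scr and at 29.2 TPM in each siPAI-1 library, 10.1% higher (log2 change 0.14, adjusted p = 0.838, limma). HLA-B was at 103 and 113 TPM with Scr and at 124 and 116 TPM with siPAI-1, 11.01% higher (adjusted p = 0.838, limma). HLA-C was at 397 and 401 TPM with Scr and at 485 and 424 TPM with siPAI-1, 13.9% higher (adjusted p = 0.838, limma). The siPAI-1 libraries of HLA-C were further apart from each other than the lower one was from the Scr libraries.

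HLA-E differed by -6.12% between the group means of RT112 siPAI-1 and Scr, at 96.1 and 91.7 TPM against 101 and 99.1 TPM. B2M overlapped between the groups, at 1267 and 1091 TPM with siPAI-1 against 1144 and 1141 TPM, as did TAP2, at 101 and 121 TPM against 118 and 129 TPM. TAPBP was 2.12% higher by group means with overlapping libraries. NLRC5 had a log2 change of 0.17 (SE 0.73, adjusted p = 0.968, limma) that rests on its divergent siPAI-1 libraries, since it was 1.14 without replicate 1 and -0.79 without replicate 2. The log2 change of B2M was -0.067 without RT112 siPAI-1 replicate 1. For B2M and NLRC5 no direction can be given in RT112.

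**Figure D5:**
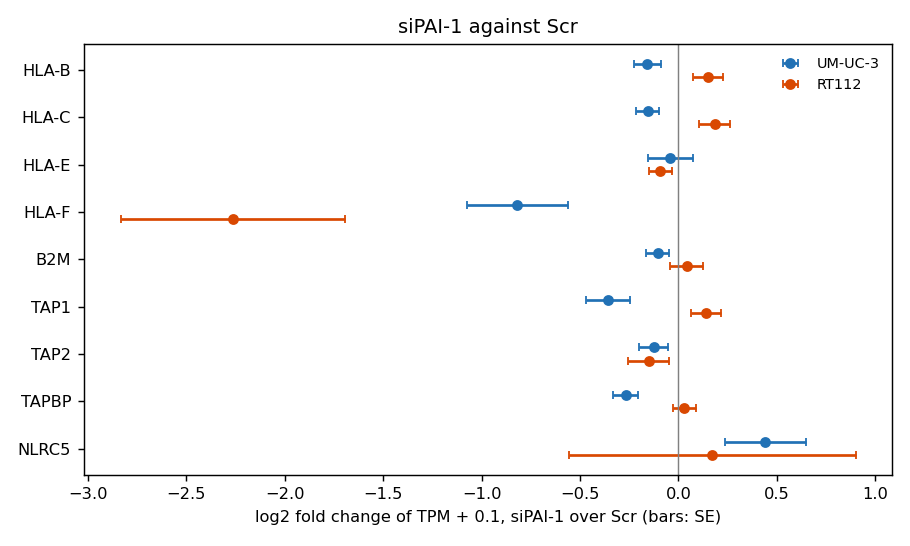
Log2 change of each member with siPAI-1 against Scr, for UM-UC-3 and RT112 separately, with bars for the standard error of the limma fit. TAP1, TAPBP, HLA-B, HLA-C and B2M lie below 0 in UM-UC-3 and above 0 in RT112, and HLA-F lies below 0 in both lines, at -0.82 and -2.26.

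The change with siPAI-1 was then compared between the lines in 1 fit over the 8 libraries. At an adjusted p under 0.05, 0 members and 0 of 20274 genes were called by limma. At an unadjusted p under 0.05, 4 members had a higher change in RT112 than in UM-UC-3 and 0 a lower one, while 6.76% of all genes passed in either direction. They were TAP1 (difference of log2 changes 0.50, SE 0.11, unadjusted p = 0.00282, adjusted p = 0.595, limma), TAPBP (0.30, unadjusted p = 0.00894, adjusted p = 0.632), HLA-C (0.34, unadjusted p = 0.0147, adjusted p = 0.642) and HLA-B (0.31, unadjusted p = 0.0215, adjusted p = 0.668). For TAP1, HLA-B and HLA-C, both siPAI-1 libraries were below both Scr libraries in UM-UC-3 and above both in RT112, a pattern of opposite, non-overlapping changes that 5.14% of all genes showed. HLA-F had a difference of -1.45 (SE 0.62, adjusted p = 0.744, limma). Averaged over both lines, in a fit added after the data were seen, HLA-F had a log2 change of -1.54 (SE 0.31, unadjusted p = 0.00198, adjusted p = 0.529, limma), and 0 of 20274 genes were called. In that fit 2 members were lower at an unadjusted p under 0.05, HLA-F and TAPBP, and 0 higher, against 3.12% and 3.34% of all genes.

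The proportions among the members were also read in the siPAI-1 libraries. The ratio of B2M to the summed heavy chains was 1.89 ± 0.033 in UM-UC-3 siPAI-1 and 1.76 ± 0.048 in RT112 siPAI-1 (SD, n = 2). HLA-C made up 65.3 ± 0.200% of the 4 heavy chains in UM-UC-3 siPAI-1 and 67.9 ± 1.12% in RT112 siPAI-1, while HLA-E made up 18.9 ± 0.749% and 14.1 ± 0.644%. The ratio of TAP1 to TAP2 was 0.140 ± 0.0087 in UM-UC-3 siPAI-1 and 0.264 ± 0.033 in RT112 siPAI-1. In UM-UC-3 this ratio lay below and in RT112 above both Scr libraries, and no test was run on it. Of the further lists, no gene of class I loading, the proteasome, the class I transcription factors, interferon signalling or the interferon response was called with siPAI-1 in either line.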

How the data were processed

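RNA-seq was performed on 8 libraries, with 2 for each siRNA in each cell line, assigned by their labels. The tables used here hold the TPM and FPKM the authors deposited for each gene, with 2 decimals, from stranded mRNA libraries read in single reads of 75 bases. The submitters' processing notes name STAR 2.5.0, RSEM 1.2.25 and GRCh38, while the paper's methods name cutadapt, STAR, featureCounts and DESeq2 without versions, so which program made the values is uncertain. DESeq2 needs counts, which were not used here. Of 27567 entries, 92 spike-ins at 0 TPM were left out.

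The test was that of limma 3.58.1, run in R 4.3.3 (lmFit and a trended eBayes, two-sided p) on log2(TPM + 0.1), which understates the change of low genes. P-values were adjusted by Benjamini-Hochberg over all genes with a value above 0 TPM in 1 or more of the libraries fitted, with calls at 0.05. Each comparison was fitted on its own 4 libraries, and the difference between the lines on all 8. The test was tested on simulated data with 200 changed genes and a fixed spread that was not taken from these libraries. For RT112 against UM-UC-3 with Scr, over 18883 genes, it recovered 30% of 2-fold and 82% of 4-fold changes. In the real comparison of the lines 51.6% of all genes were called, far more than the 200 simulated. The simulated recovery therefore does not describe the comparison of the lines. For siPAI-1 against Scr in UM-UC-3, over 18073 genes, the values were 28% and 81%, and in RT112, over 18058 genes, 34% and 85%.

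Depth was estimated from the deposited FPKM values of genes of 200 to 700 bases with 1 transcript, with 74 bases taken off the length, as the number of reads between 20 and 45 M that best gives whole reads. At that depth 78.1% to 81.9% of values were within 0.1 of a whole read, against a median of 14.0% to 16.0% over all depths searched. A depth 2 times as large would give whole reads as well. Reads per gene are upper estimates from the longest transcript at the estimated depth, and a larger depth would raise them. They carry counting error and the uncertainty of depth and transcript length.

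The members and lists were chosen with earlier results of these data known. Named were all members, the RFX subunits, PSMB8, PSMB9 and PSMB10, and of each list up to 4 genes with the smallest p among those called with Scr at a mean of at least 1 TPM, and any list gene called with siPAI-1, while some genes covered by this rule are not reported here. Promoters and gene positions are from RefSeq (GRCh38.p14), where 7 of 9 symbols matched a promoter, and the NF-kB pattern was settled after the promoters had been seen. Results were recomputed with each replicate left out, with eBayes untrended, with a replicate block, with all 8 libraries in 1 fit, with a mean of 1 TPM as filter, after rescaling by the median ratio, from FPKM, and with pseudocounts of 0.01 and 1 TPM. The mean over both lines was added after seeing the data. Summaries and plots used Python 3.11.15, numpy 2.4.6, pandas 2.3.3 and matplotlib 3.10.9.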

Additional observations from a re-analysis of the deposited data

Results flagged for a closer look

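For 3 members, every siPAI-1 library lay below every Scr library in UM-UC-3 and above every Scr library in RT112. The difference of the log2 changes between the lines was 0.50 for TAP1, from -0.36 in UM-UC-3 and 0.14 in RT112. For HLA-C it was 0.34, from -0.16 and 0.18, and for HLA-B it was 0.31, from -0.16 and 0.15. In the interaction fit of limma over all 8 libraries the adjusted p was 0.595, 0.642 and 0.668, so none passed the test across all genes, and 5.14% of 20274 genes had the same kind of pattern. With 2 libraries in a group, no group could be screened for a library far from the others.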

How the results depend on the processing

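Of 986 alternative values over 89 results, 897 were labelled the same. For a log2 difference this means that direction and side of the threshold were kept. For a count it means a similar size, and for a share or ratio a value within the SD of its group. With 2 libraries, a share or ratio with 1 of them left out meets that rule by construction. In the Scr comparison of the lines, 2 members were called lower, and 1 with a pseudocount of 0.01 TPM or with eBayes without trend, where HLA-F was lost (and HLA-E, called higher, without trend). With siPAI-1, 1 member was called lower, and 2 with a pseudocount of 1 TPM, in 1 fit over all 8 libraries or with a replicate block, where NLRC5 was added. With a library left out, Scr members called numbered 1 to 4 higher and 0 to 2 lower, and siPAI-1 members 2 to 5 higher and 0 to 2 lower. Genes called over the whole table with Scr then numbered 2975 to 3120 higher (4850 with all libraries) and 2655 to 3589 lower (5059), and with siPAI-1 2492 to 3904 higher (5064) and 2802 to 3238 lower (5044). Of siPAI-1 changes, 1 gene was called lower in UM-UC-3 with the filter at a mean of 1 TPM, and 2 higher in RT112 in 1 fit over all 8 libraries, none of them a member. For the difference between the lines, eBayes without trend called 4 genes higher and 3 lower, and leaving out a library gave 0 to 101 higher and 0 to 42 lower, with 0 in the fit on all libraries. The cause of these shifts was not tested.

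Leaving out a library reversed the sign for 4 members, none of them called in these comparisons. The log2 change ranged from -0.19 to 0.11 for HLA-E in UM-UC-3, from -0.067 to 0.15 for B2M in RT112 and from -0.79 to 1.14 for NLRC5 in RT112. The difference between the lines ranged from -0.20 to 0.095 for HLA-E, from -0.15 to 0.10 for TAP2 and from -1.24 to 0.70 for NLRC5. Samples with the same replicate number did not deviate together (r across genes of 0.06 in UM-UC-3 against -0.05 for RT112). With the replicate block, 6 members were called higher and 2 lower with Scr, 7 and 2 with siPAI-1, and 0 in either siPAI-1 against Scr comparison. Depth limits HLA-F in RT112 siPAI-1, at 5.0 and 2.8 reads at most for the estimated depth. FPKM or rescaling by the median ratio changed no call of a member.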

Other observations

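Over the 8 libraries, the 5 genes (of those averaging 5 TPM or more) whose pattern was most like the mean of the 9 members were TRMT6 (Pearson r = 0.94), BTBD2 (0.92), VAC14 (0.91), EIF3B (0.91) and TNFRSF10B (0.90), out of 10222 compared. The libraries share line and siRNA, and the members themselves had an r of -0.24 (NLRC5) to 0.52 (TAPBP) with that mean, so it represents none of them closely.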
